A study of Homo sapiens with 15 samples.

Results

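The transcriptomes of osteosarcoma stem-like cells (OSCs) carrying 2 different short hairpins against PDK1 were compared directly, shPDK1#2 against shPDK1#1. The comparison used 6 of the 15 libraries of the series, 3 with each hairpin, and it took in every gene that passed a low-count filter, 14574 of the 62700 genes in the table. Positive values are higher with shPDK1#2, and no control library stands on either side of the difference.

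All libraries came from 143B, an established human osteosarcoma line. OSCs were 143B cells grown as floating spheres in a stem cell medium, and non-OSCs were the same cells grown attached. OSCs were infected with lentivirus carrying a control construct (shCtrl, genotype label WT), shPDK1#1 or shPDK1#2, with 3 numbered libraries each. The study names no control hairpin among its plasmids, so whether shCtrl carried a hairpin is not known. A separate table held 3 OSC and 3 non-OSC libraries without hairpins. All 9 shRNA libraries therefore shared the line, the sphere culture and viral infection. The numbers 1 to 3 are not stated to be separate cultures, so p-values measure the spread between these libraries, which may be technical.

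PDK1 (pyruvate dehydrogenase kinase 1) is a mitochondrial kinase that phosphorylates and switches off the pyruvate dehydrogenase complex, the enzyme that turns pyruvate into acetyl-CoA. High PDK1 keeps pyruvate from the tricarboxylic acid (TCA) cycle and leaves it to be reduced to lactate, and the gene is a classical target of HIF-1 in hypoxia. The comparison of the hairpins asks which transcripts follow the depth of the knockdown or the hairpin itself. The depth of the knockdown and the sequence of the hairpin cannot be told apart here, and in bulk RNA fewer cells of a kind and less RNA per cell cannot be told apart.

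Summed counts ran from 8076943 to 11256536 with shPDK1#1 and from 9625912 to 10768779 with shPDK1#2. In shPDK1#1, replicate 2 differed from replicates 1 and 3 at a chi-square per degree of freedom of 3.38 and 3.39 over genes, against 1.95 between those 2 libraries, and its share of mitochondrial counts was 3.10% where theirs were 3.54% and 3.63%. The part of that library in the results was not tested further than by leaving it out, which gave 2324 calls in place of 2374. The summed osteoblast and osteosarcoma markers stood at 2493 to 2584 CPM (counts scaled to a common library size) with shPDK1#1. With shPDK1#2 they stood at 2941 to 3077 CPM. Of the 6 tested markers 2 rose and none fell, but 4 had log2 fold changes below 0, and the median was -0.11. IBSP and SP7, defining genes of that lineage, had at most 3 counts in every library. Some markers of other cells were also at 3 counts or fewer. They include PTPRC, CSF1R and TYROBP of myeloid cells, VWF and CDH5 of endothelium, CDH1 and KRT19 of epithelium, and all 8 lymphocyte markers. Others passed 3 counts in at least 1 library: 5 of 10 myeloid, 5 of 8 endothelial and 5 of 8 epithelial and kidney markers.

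PDK1 itself, on chromosome 2 (GRCh38, 172555373 to 172608669, 11 exons), stood at 29.0, 27.8 and 27.3 CPM (normalised by the trimmed mean of M-values, TMM) with shPDK1#1, and at 18.3, 21.5 and 19.6 CPM with shPDK1#2. The shCtrl OSCs held 46.7, 44.7 and 44.4 CPM. The 3 groups did not overlap, and shPDK1#2 had the lowest level. The difference between the hairpins was a log2 fold change of -0.50 with a standard error (SE) of 0.091 and an adjusted p of 0.000240 by edgeR's quasi-likelihood test, 1.42-fold lower. An exact two-sided permutation test of these 3 against 3 libraries gave its smallest possible p, 0.1. In the 9 fits that each omitted a library, PDK1 passed the test every time, at -0.56 to -0.44.

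The other kinases of the family did not pass the test. PDK2 had a log2 fold change of 0.06 (adjusted p = 0.877) and PDK3 one of -0.06 (adjusted p = 0.622), while PDK4 was too low to be tested, at 1.56 CPM or less. PDHA1, the catalytic subunit that PDK1 phosphorylates, stood at 99.3, 98 and 88.8 CPM with shPDK1#1, against 109, 111 and 112 CPM with shPDK1#2. The groups of PDHA1 did not overlap, and its log2 fold change was 0.22 (SE 0.055, adjusted p = 0.00568). Its call was lost without shPDK1#1 replicate 3 (0.17, adjusted p = 0.0613). Of the 13 tested kinases, phosphatases and subunits of the complex and carriers that bring pyruvate into mitochondria, 2 rose and 2 fell, the others being DLAT and PDP1. Rises and falls were 15.4% each, beside 6.50% and 9.78% of all genes. PDK1 was the only fall left in all but 2 of the 9 fits that left out a library, the exceptions being those without shPDK1#1 replicate 2 and without shPDK1#2 replicate 3. The rises numbered 1 without shPDK1#1 replicate 2 or shPDK1#2 replicate 1 or 3 and 0 without shPDK1#1 replicate 3.

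Of all genes tested, 2374 (16.3%) differed between the hairpins at an adjusted p under 0.05, 948 (6.50%) higher and 1426 (9.78%) lower with shPDK1#2. Most differences were small. The median log2 fold change was 0.27 among genes that rose and -0.34 among genes that fell, and 57 genes rose and 81 fell by at least 1 on the log2 scale. Among genes with a mean of at least 10 CPM, 5 rose and 24 fell by that much. With upper quartile factors in place of TMM the balance turned, to 1350 genes higher and 1120 lower, so the split into rises and falls depends on the scaling. Of the genes chosen by rule, HK1 alone, which did not pass the test, changed sign with those factors. The fewest calls in a fit that left out a library were 1721, without shPDK1#1 replicate 3.

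**Figure D1:**
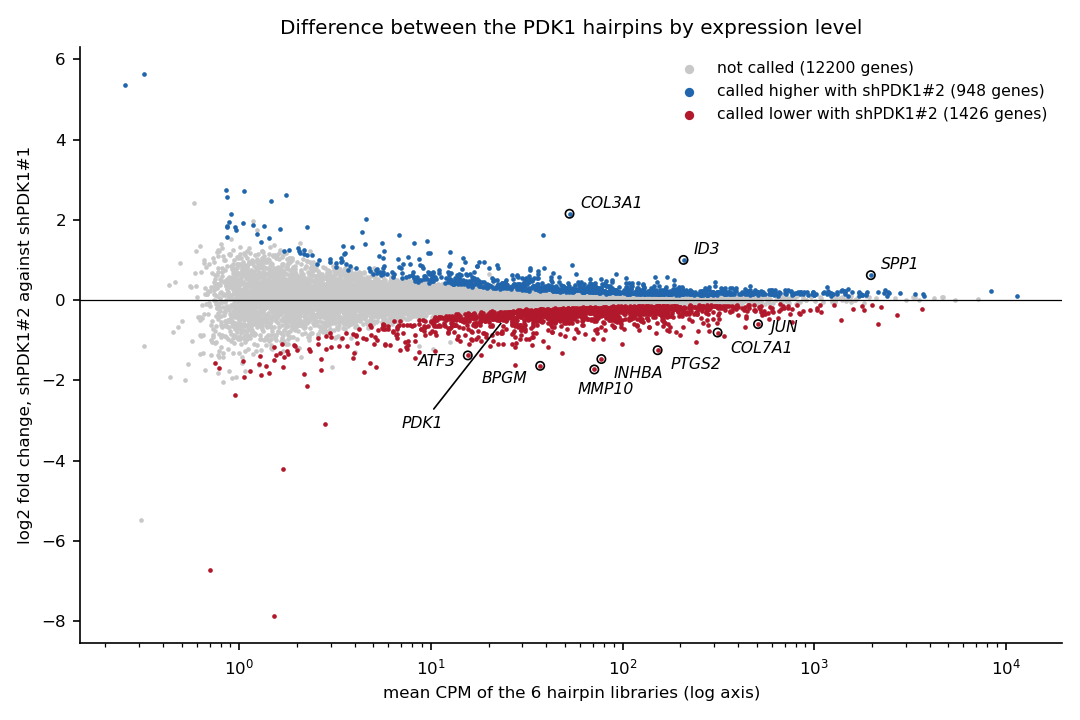
Log2 fold change of shPDK1#2 against shPDK1#1 OSCs (y axis) by mean expression in CPM on a log axis (x axis), 1 point a gene for 14574 genes. The 948 genes called higher and the 1426 called lower are coloured, and most lie within 1 log2 unit of 0, with COL3A1 among the rises and MMP10 among the falls of well-expressed genes.

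The largest falls among genes with a mean of at least 10 CPM and hairpin libraries that do not overlap, a condition of the rule that chose them, were those of MMP10, BPGM, DNER, INHBA, ATF3, RGS16, IL11, CXCR4, PTGS2 and KLF2. MMP10, the matrix metalloproteinase stromelysin-2 (chromosome 11, 102770502 to 102780628), stood at 108, 107 and 113 CPM with shPDK1#1, against 33.0, 31.8 and 34.6 CPM with shPDK1#2. The shCtrl libraries lay between them at 86.5, 92.7 and 95.2 CPM. The log2 fold change between the hairpins was -1.73 (SE 0.064, adjusted p = 7.29e-16), and 5.46% of the MMP10 transcript sequence was shared with other genes. BPGM, which makes 2,3-bisphosphoglycerate from a glycolytic intermediate (chromosome 7, 134646811 to 134679816), was at 55.6, 56.0 and 57.1 CPM against 19.6, 15.6 and 19.1 CPM. Its log2 fold change was -1.64 (SE 0.085, adjusted p = 2.06e-13), and the shPDK1#1 values lay a little below those of shCtrl, at 62.4, 63.3 and 67.2 CPM. Where 3 values are set against 3, here and below, those of shPDK1#1 come first.

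DNER, a transmembrane Notch ligand (chromosome 2, 229357629 to 229714555), held 37.1, 42.9 and 44.1 CPM with shPDK1#1, against 14.5, 13.3 and 12.3 CPM with shPDK1#2, a log2 fold change of -1.63 (SE 0.10, adjusted p = 4.98e-12). INHBA, the activin A subunit (chromosome 7, 41667168 to 41705834), went from 113, 113 and 116 CPM to 37.9, 44.1 and 41.1 CPM, a log2 fold change of -1.47 (SE 0.065, adjusted p = 1.02e-14). The shCtrl libraries lay near or above shPDK1#1, at 49.9, 50.6 and 43.9 CPM for DNER and at 125, 129 and 114 CPM for INHBA. RGS16, a brake on G protein signalling, fell from 27.1, 28.5 and 23.1 CPM to 10.4, 9.20 and 10.7 CPM (log2 fold change -1.37, adjusted p = 2.26e-09). KLF2, a zinc finger transcription factor, fell from 49.9, 65.2 and 54.8 CPM to 25.2, 25.5 and 24.3 CPM (log2 fold change -1.18, adjusted p = 2.75e-10). The KLF2 values of shPDK1#1 spread more widely than those of shPDK1#2.

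PTGS2, the inducible cyclooxygenase COX-2, and CXCR4, the receptor for CXCL12, took opposite sides of the control with the 2 hairpins. PTGS2 stood at 221, 200.5 and 222 CPM with shPDK1#1, against 94.5, 83.7 and 92.7 CPM with shPDK1#2, around 159.8, 164 and 176 CPM in shCtrl. CXCR4 stood at 13.8, 15.9 and 14.8 CPM, at 4.19, 7.38 and 6.98 CPM, and at 9.76, 10.9 and 7.45 CPM in the same order. The log2 fold changes between the hairpins were -1.25 for PTGS2 (SE 0.056, adjusted p = 1.20e-14) and -1.27 for CXCR4 (SE 0.177, adjusted p = 7.76e-06).

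**Figure D2:**
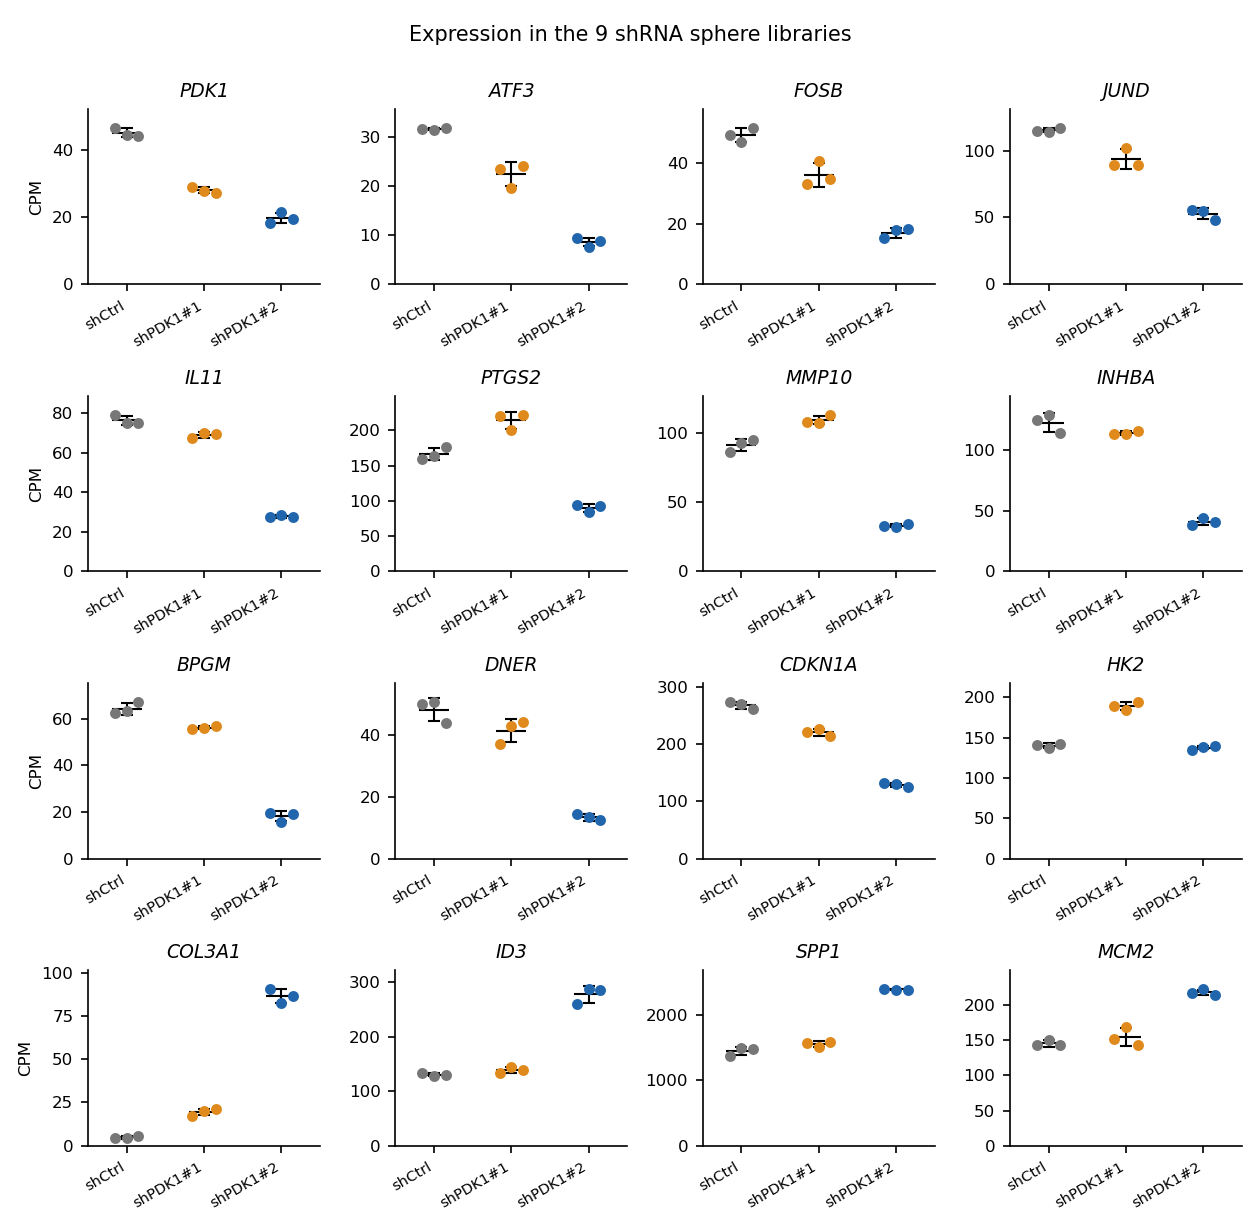
TMM-scaled CPM (y axis, linear from 0) in each of the 3 shCtrl, 3 shPDK1#1 and 3 shPDK1#2 OSC libraries (points), with the mean and SD of each group (lines), 1 panel a gene for 16 genes. The PDK1 libraries lie at 44.4 to 46.7, then 27.3 to 29.0 and then 18.3 to 21.5 CPM.

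By the same rule the largest rise was of COL3A1, the chain of type III collagen (chromosome 2, 188974373 to 189012746, 51 exons). It stood at 17.3, 19.8 and 20.9 CPM with shPDK1#1, against 90.4, 82.6 and 86.3 CPM with shPDK1#2, and at 4.60, 4.12 and 5.84 CPM in shCtrl. The 3 groups formed 3 separate levels, and the hairpins differed by a log2 fold change of 2.15 (SE 0.086, adjusted p = 2.20e-15), 4.47-fold. ID3, an inhibitor of helix-loop-helix factors and a classical BMP target (chromosome 1, 23557926 to 23559501), stood at 133, 144 and 138 CPM with shPDK1#1, against 259.8, 287 and 286 CPM with shPDK1#2. The shCtrl libraries, at 134, 128 and 129 CPM, overlapped shPDK1#1. Its log2 fold change was 1.0 (SE 0.049, adjusted p = 5.75e-14).

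The other large rises by the same rule were of UNC5C, A2M, SLC8A1, NPTX2, C7, COL4A6, TUBA1B-AS1 and ANKRD36C. UNC5C, a netrin receptor, rose by a log2 fold change of 1.2 (8.21, 8.06 and 6.61 CPM against 15.2, 19.1 and 17.9 CPM, adjusted p = 1.72e-06). A2M, the protease trap alpha-2-macroglobulin, rose by 1.05 (9.95, 8.37 and 10.4 CPM against 18.8, 20.4 and 20.5 CPM, adjusted p = 1.97e-06). The complement component C7 (0.89), the sodium-calcium exchanger SLC8A1 (0.95) and the neuronal pentraxin NPTX2 (0.94) rose as well. COL4A6, a basement membrane collagen chain, stood at 40.9, 41.4 and 33.7 CPM against 70.6, 71.8 and 69.0 CPM, a log2 fold change of 0.87 (adjusted p = 5.04e-09). TUBA1B-AS1 rose by 1.62 with wide spread (27.4, 13.2 and 17.0 CPM against 69.5, 42.1 and 61.2 CPM), but 35.5% of it overlaps genes of the other strand. ANKRD36C rose by 0.94, and 44.6% of its sequence occurs in other genes. These rises and falls passed the test in all 9 fits that left out a library.

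The AP-1 and ATF family of leucine zipper factors, which act as dimers on stress and growth factor signals, had the largest share of falls of the 35 gene lists examined. Of 19 tested members 14 fell (73.7%, where 9.78% of all genes did) and none rose, with a median log2 fold change of -0.45 beside 0.005 over all genes. ATF3, a factor induced by stress (chromosome 1, 212565334 to 212620777), stood at 23.6, 19.7 and 24.2 CPM with shPDK1#1, against 9.41, 7.69 and 8.86 CPM with shPDK1#2, a log2 fold change of -1.38 (SE 0.118, adjusted p = 3.14e-09). In shCtrl it held 31.7, 31.5 and 31.9 CPM, so its 3 groups were apart and in the order of PDK1. The study chose ATF3 among genes lower with both hairpins than in shCtrl, so its place below shCtrl was a condition of that choice.

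FOSB stood at 33.1, 40.6 and 34.8 CPM against 15.2, 17.9 and 18.2 CPM, a log2 fold change of -1.09 (SE 0.099, adjusted p = 8.79e-09). FOS stood at 43.4, 44.5 and 41.4 CPM against 21.0, 23 and 21.8 CPM (-0.98, SE 0.082, adjusted p = 2.44e-09). JUND, another JUN family protein, stood at 89.1, 102 and 89.1 CPM against 55.4, 54.9 and 48.3 CPM (-0.82, SE 0.067, adjusted p = 1.35e-09). No library of either hairpin overlapped the other group in these genes, and shCtrl was above both, at 46.9 to 51.7 CPM for FOSB, 51.2 to 56.8 CPM for FOS and 114 to 117 CPM for JUND. JUN, the founding member and chosen after its values were seen, stood at 587, 653 and 598 CPM against 387, 432 and 397 CPM, a log2 fold change of -0.60. The 5 members that were tested and did not pass were FOSL2 (-0.16), ATF1 (0.08), ATF7 (-0.10), BATF3 (0.15) and JDP2 (-0.26), and BATF was too low to be tested. Over the fits that left out a library, 13 to 15 members fell.

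Promoter sequence of 4 genes that fell is shown, picked because it holds the letters of a motif: AP-1 dimers bind TGAGTCA, which reads as TGACTCA on the other strand, and dimers with ATF or CREB proteins bind the cyclic AMP response element (CRE) TGACGTCA. The windows are the 250 bases before the annotated start in RefSeq on GRCh38.p14, written 5′ to 3′ on the strand of the gene, with the motif in capitals. IL11 lies on the minus strand (chr19:55370464-55370713), CXCL8 on the plus strand (chr4:73740319-73740568), and JUND (chr19:18281623-18281872) and DUSP8 (chr11:1572272-1572521) on the minus strand.
IL11: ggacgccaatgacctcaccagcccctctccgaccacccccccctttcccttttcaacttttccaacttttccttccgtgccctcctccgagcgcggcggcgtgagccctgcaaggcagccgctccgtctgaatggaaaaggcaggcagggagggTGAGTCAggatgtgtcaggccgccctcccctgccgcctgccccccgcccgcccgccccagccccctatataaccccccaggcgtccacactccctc
CXCL8: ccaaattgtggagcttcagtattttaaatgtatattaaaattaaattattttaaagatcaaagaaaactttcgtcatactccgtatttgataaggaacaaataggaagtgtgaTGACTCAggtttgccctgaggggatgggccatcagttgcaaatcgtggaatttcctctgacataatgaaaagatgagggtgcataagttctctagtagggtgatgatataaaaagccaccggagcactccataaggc
JUND: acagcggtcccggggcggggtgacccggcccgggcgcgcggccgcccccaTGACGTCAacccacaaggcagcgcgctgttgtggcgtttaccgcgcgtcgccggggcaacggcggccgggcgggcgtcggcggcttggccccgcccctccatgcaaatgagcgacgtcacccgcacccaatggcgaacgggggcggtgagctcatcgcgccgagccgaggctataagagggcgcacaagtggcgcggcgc
DUSP8: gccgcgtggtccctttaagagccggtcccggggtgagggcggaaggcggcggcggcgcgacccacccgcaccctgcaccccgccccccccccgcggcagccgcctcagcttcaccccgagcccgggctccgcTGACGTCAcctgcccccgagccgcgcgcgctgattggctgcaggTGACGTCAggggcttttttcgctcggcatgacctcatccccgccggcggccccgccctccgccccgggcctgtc
The AP-1 letters lie at -96 to -90 of IL11 and at -137 to -131 of CXCL8. The CRE letters lie at -200 to -193 of JUND, and DUSP8 holds them at -118 to -111 and again at -74 to -67. Of the 10857 tested genes with a promoter in the table, 322 (2.97%) hold the AP-1 letters on either strand within 250 bases before to 50 after the start, and 366 (3.37%) hold the CRE letters. Only 74.6% of the tested symbols matched a promoter, under the 80% needed, so a comparison of motif shares between called genes and others is void. Of the 15 tested members of the AP-1 and ATF list with a promoter in the table, 1 (FOSL2, which did not pass) holds the AP-1 letters and 3 (JUND, MAF and MAFF) hold the CRE letters, and the windows of ATF3, FOS, FOSB, JUN and JUNB hold neither. A match is a description of the letters and not evidence of binding.

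Genes around this family fell as well, in smaller shares. Of 23 tested phosphatases, feedback inhibitors and outputs of the MAPK pathway 12 fell (52.2%) and 2 rose (8.70%), with a median of -0.21. Over all genes 9.78% fell and 6.50% rose. DUSP8, a phosphatase of stress kinases, stood at 11.7, 10.5 and 12.1 CPM with shPDK1#1, against 7.36, 7.28 and 7.08 CPM with shPDK1#2, a log2 fold change of -0.66 (SE 0.142, adjusted p = 0.00154). Its shCtrl libraries, at 17.0, 19.1 and 15.5 CPM, were above both. DUSP16 fell from 53.7, 51.5 and 52.5 CPM to 32.1, 35 and 32.7 CPM (-0.66, adjusted p = 2.09e-07), while its shCtrl libraries, at 54.3, 55.3 and 52.7 CPM, overlapped shPDK1#1. DUSP10 (-0.91) and the cytokine LIF (-0.72) fell too. The 2 rises were SPRY1 (0.34) and ETV4 (0.20), of which none was left without shPDK1#1 replicate 3 or without shPDK1#2 replicate 2 and 1 was left without shPDK1#1 replicate 1 or 2 or shPDK1#2 replicate 1.

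Of 25 immediate early genes outside AP-1, 7 fell (28%) and 2 rose, with a median of -0.19. TRIB1, a pseudokinase, stood at 105, 111 and 115 CPM against 74.4, 68.7 and 67.2 CPM (-0.66, adjusted p = 2.32e-08), and KLF6 at 366, 366 and 382 CPM against 272, 264 and 263 CPM (-0.48, adjusted p = 1.11e-09). Both were apart between the hairpins and higher in every shCtrl library. CCN2, a matricellular target of YAP and TGF-beta, moved the other way, from 23.5, 29.2 and 24.6 CPM to 41.1, 39.0 and 37.9 CPM (0.61, adjusted p = 3.18e-05). The other rise, CCN1, was lost without shPDK1#1 replicate 1 or 3 or shPDK1#2 replicate 2.

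In the NFAT and calcium signalling list 8 of 22 members fell (36.4%, beside 9.78% of all genes) and 1 rose. The median was -0.16. NFATC2, a calcineurin-regulated transcription factor, stood at 39.4, 42.1 and 42.9 CPM against 23.7, 19.6 and 20.5 CPM (-0.96, SE 0.088, adjusted p = 9.44e-09). RCAN1, a calcineurin inhibitor and NFAT target, fell by 0.56 on the log2 scale, and the plasma membrane calcium pump ATP2B4 by 0.51. The inositol trisphosphate receptor ITPR1 rose by 0.42, from 87.9, 93.2 and 87.8 CPM to 119.8, 113 and 127 CPM.

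Of 22 tested genes of NF-kB signalling, cytokines and chemokines 11 fell (50%, beside 9.78% of all genes) and none rose. Their median was -0.34. IL11, a cytokine of the gp130 group that acts in bone (chromosome 19, 55364382 to 55370463), stood at 67.4, 70.2 and 69.4 CPM against 27.5, 28.7 and 27.5 CPM, a log2 fold change of -1.31 (SE 0.069, adjusted p = 2.28e-13). The shCtrl libraries held 79.2, 75.1 and 75.3 CPM of IL11, so that shPDK1#1 lay close under the control and shPDK1#2 far below it. CXCL8, the neutrophil chemokine, stood at 12.7, 11.1 and 12.5 CPM against 6.43, 6.47 and 6.88 CPM (-0.87, SE 0.166, adjusted p = 0.000426). BIRC3, an inhibitor of apoptosis, stood at 22.9, 16.1 and 18.3 CPM against 9.50, 9.20 and 9.06 CPM (-1.03, adjusted p = 5.03e-06). TNFAIP3, the feedback inhibitor A20, stood at 41.4, 37.3 and 39.1 CPM against 23.6, 22.1 and 23.2 CPM (-0.77, adjusted p = 2.62e-07). All 3 shCtrl libraries lay between the hairpins for TNFAIP3, at 28.9 to 32.4 CPM. The counts of this list stayed at 9 to 11 when a library was left out.

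Matrix proteases and their inhibitors fell in 12 of 30 tested members (40.0%, beside 9.78% of all genes) and rose in 2 (6.67%, beside 6.50%). Their median was -0.26. Beside MMP10, the urokinase gene PLAU stood at 95.3, 92.9 and 91.6 CPM with shPDK1#1, against 48.5, 47.9 and 45.8 CPM with shPDK1#2 (-0.97, SE 0.061, adjusted p = 8.18e-12). ADAMTS1, an aggrecanase, stood at 46.8, 42.0 and 43.1 CPM against 21.5, 22.2 and 26.1 CPM (-0.92, adjusted p = 7.51e-08). Both were clear of overlap, with shCtrl between the hairpins for PLAU (82.1 to 90.7 CPM) and above them for ADAMTS1 (54.8 to 67.7 CPM). MMP1, the interstitial collagenase, chosen after its values were seen, stood at 2623, 2569 and 2606 CPM with shPDK1#1, against 1731, 1699 and 1743 CPM with shPDK1#2, while shCtrl stood at 1715, 1695 and 1774 CPM. For MMP1 the shPDK1#2 libraries overlapped the control and the shPDK1#1 libraries were above both, and the log2 fold change between the hairpins was -0.59 (SE 0.030, adjusted p = 1.06e-13). The 2 rises, PLAT (0.21) and SERPINE2 (0.14), were both lost without shPDK1#1 replicate 1 or shPDK1#2 replicate 3, and 1 was left without shPDK1#1 replicate 3 or shPDK1#2 replicate 2.

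Integrins and laminins changed both ways, 10 of 28 lower (35.7%, beside 9.78% of all genes) and 4 higher (14.3%, beside 6.50%). The median was -0.11. ITGA5, the fibronectin receptor subunit, fell from 276, 311 and 301 CPM to 211, 222 and 219.5 CPM (-0.45, adjusted p = 5.02e-08), and the laminin chain LAMA5 fell by 0.38. ITGA10, a collagen-binding subunit, rose from 74.3, 72.3 and 75.6 CPM to 95.6, 109 and 101 CPM (0.46, adjusted p = 5.85e-06).

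In the TGF-beta and BMP pathway 12 of 34 members fell and 7 rose, with a median of -0.11. Those shares were 35.3% and 20.6%, beside 9.78% and 6.50% of all genes. Among the secreted ligands and antagonists, INHBA fell as given above and GREM1, a BMP antagonist, stood at 38.9, 32.5 and 36.2 CPM against 21.0, 16.4 and 19.7 CPM (-0.91, adjusted p = 2.85e-07). PMEPA1, a TGF-beta target that restrains SMAD signalling, stood at 447, 444 and 434 CPM against 231, 244 and 234 CPM (-0.90, SE 0.038, adjusted p = 5.41e-15), with shCtrl between at 409 to 415 CPM. Of the ID genes, ID1 rose beside ID3, at 123, 148 and 138 CPM against 201, 209 and 202 CPM (0.58), while ID2 (0.07, adjusted p = 0.876) and ID4 (0.19, adjusted p = 0.475) did not pass. The inhibitory SMADs SMAD6 (0.75) and SMAD7 (0.51) rose. ID1, ID2, ID4 and both SMADs were picked once their values had been seen. TGFB1 rose by 0.15 with overlapping libraries (479, 549.6 and 489 CPM against 559, 594 and 535 CPM, adjusted p = 0.0267). The TGFB1 call was lost in 4 of the 9 fits that left out a library: without shPDK1#1 replicate 1 (0.11, adjusted p = 0.145) or 3 (0.13, adjusted p = 0.131) and without shPDK1#2 replicate 1 (0.16, adjusted p = 0.0596) or 2 (0.11, adjusted p = 0.140). SMAD3, a receptor-regulated SMAD, had a log2 fold change of 0.03 (adjusted p = 0.676).

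Of 29 tested collagen chains and collagen-modifying enzymes 13 rose and 5 fell, with a median of 0.13. Rises were 44.8% and falls 17.2%, beside 6.50% and 9.78% of all genes. Beside COL3A1 and COL4A6, COL1A1, the main chain of type I collagen and chosen after its values were seen, stood at 1007, 1097 and 1014 CPM against 1278, 1388 and 1243 CPM, a log2 fold change of 0.33. COL1A2, its partner chain, was at 0.357 CPM or less with shPDK1#1 and at 1.49, 1.31 and 1.67 CPM with shPDK1#2 (2.56, SE 0.584, adjusted p = 0.00272), a difference between very low levels. COL7A1, the anchoring fibril chain, fell from 368, 431 and 398 CPM to 219, 235 and 228 CPM (-0.81, SE 0.048, adjusted p = 2.20e-12). The counts of rises stayed at 11 to 13 when a library was left out.

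Of 13 tested osteoblast lineage genes 5 rose (38.5%, beside 6.50% of all genes) and 1 fell (7.69%, beside 9.78%), with a median of 0.20. SPP1, the bone matrix protein osteopontin (chromosome 4, 87975667 to 87983532), stood at 1568, 1506 and 1588 CPM with shPDK1#1, against 2398, 2392 and 2389 CPM with shPDK1#2, and at 1378, 1489 and 1478 CPM in shCtrl. It rose by 0.62 (SE 0.033, adjusted p = 2.87e-13), with the shPDK1#2 libraries close together and clear of all others. POSTN, a matricellular protein of bone surfaces, rose from 2.24, 2.30 and 1.70 CPM to 6.80, 5.46 and 7.81 CPM (1.69, adjusted p = 0.000202). TNFRSF11B, the decoy receptor osteoprotegerin, was the fall, from 145, 125 and 135 CPM to 68.9, 60.6 and 61.3 CPM (-1.09, SE 0.065, adjusted p = 2.48e-12). Without shPDK1#2 replicate 3, 2 members fell.

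Markers of fibroblasts and pericytes moved in both directions beside these matrix genes. Their summed level was 327 to 344 CPM in shCtrl, 356 to 375 CPM with shPDK1#1, against 380.1 to 401 CPM with shPDK1#2. COL3A1 is itself one of them, and PDGFRB rose from 5.97, 4.71 and 4.56 CPM to 14.8, 14.3 and 12.7 CPM (1.47, SE 0.172, adjusted p = 6.28e-07). LUM (1.88) rose too, PDGFRA (-0.21) and PDPN (-0.64) fell, FAP (-0.91) and ACTA2 (-0.01) did not pass the test, DCN and RGS5 were too low to be tested, and THY1 had at most 3 counts in every library. The part of these markers in the result was not tested. Summed myeloid markers stood at 38.0 to 45.3 CPM against 23.8 to 29.1 CPM and summed epithelial and kidney markers at 384 to 399.9 CPM against 439.6 to 478 CPM, KRT18 among the latter rising by 0.24. Summed endothelial markers stood at 13.3 to 18.7 CPM against 17.2 to 19.9 CPM. Some members of these lists had 3 counts or fewer in every library, as given above, and others had more.

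**Figure D3:**
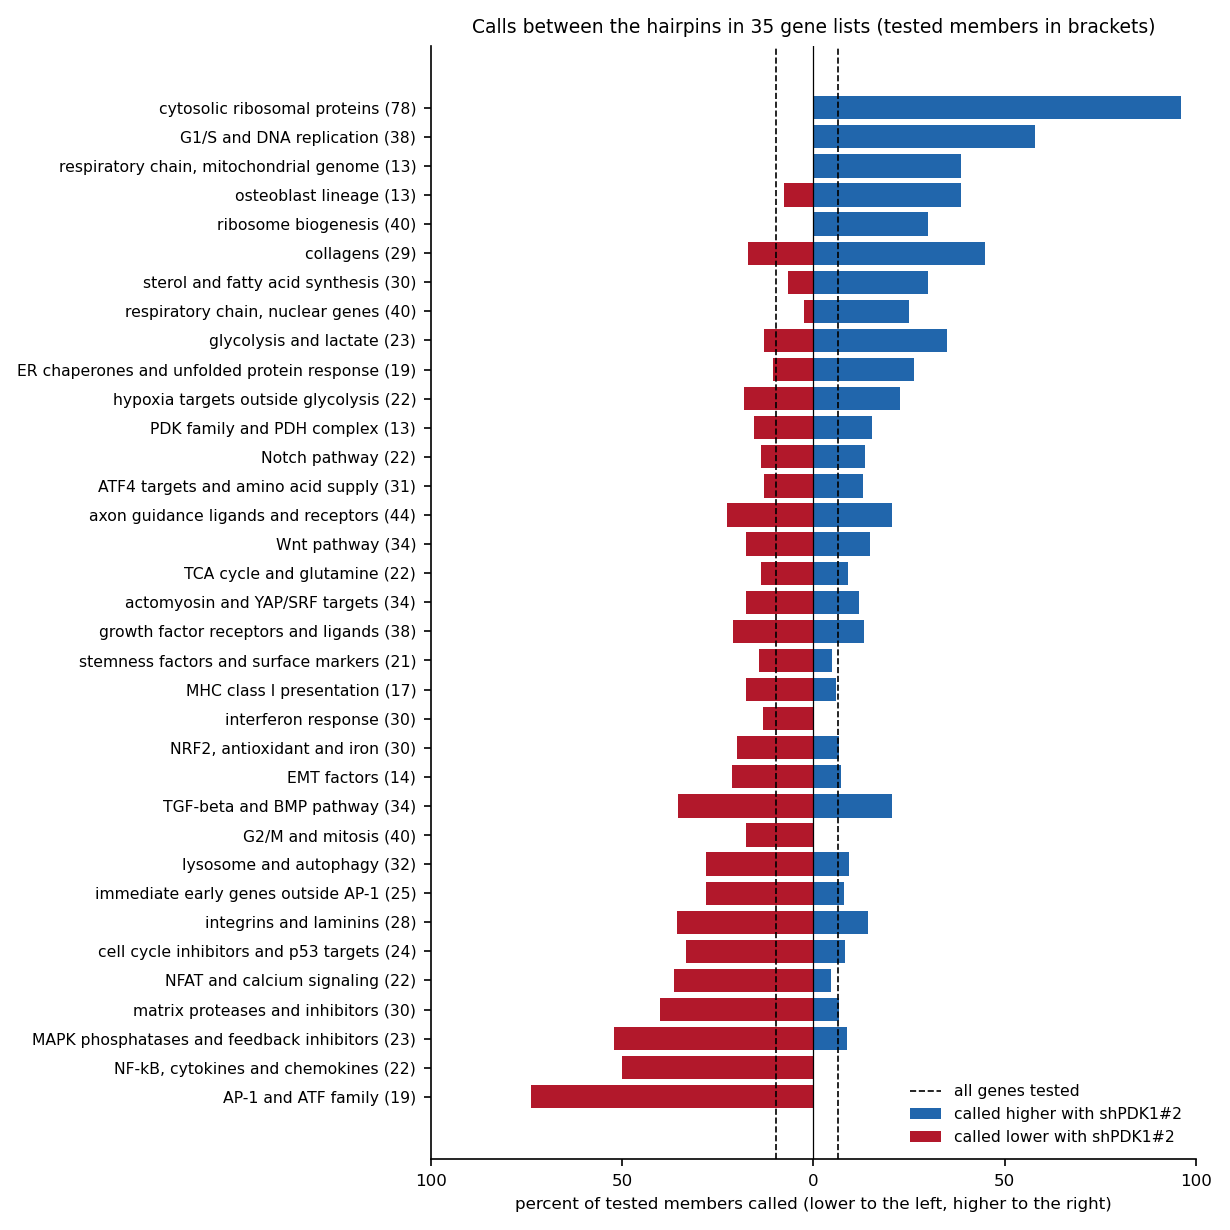
Percent of tested members called higher (bars to the right) and lower (bars to the left) with shPDK1#2 in each of 35 gene lists (y axis, tested members in brackets), with dashed lines at the 6.50% and 9.78% of all genes called in each direction. The longest bars to the right are of ribosomal proteins (75 of 78) and G1/S genes (22 of 38), and the longest to the left of the AP-1 and ATF family (14 of 19) and the MAPK list (12 of 23).

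G1/S and DNA replication genes rose in 22 of 38 tested members (57.9%, where 6.50% of all genes did) and none fell, with a median of 0.21. MCM2, a subunit of the replicative helicase, stood at 152, 169 and 143 CPM against 217, 223 and 215 CPM (0.50, SE 0.052, adjusted p = 7.83e-08). The shCtrl libraries of MCM2, at 143 to 151 CPM, overlapped shPDK1#1. E2F2, a transcription factor of S phase entry, stood at 11.1, 9.0 and 9.47 CPM against 14.5, 15.5 and 16.8 CPM (0.67, adjusted p = 0.000637). The shCtrl libraries of E2F2, at 13.8, 15.7 and 12.7 CPM, overlapped shPDK1#2 and lay above shPDK1#1. GINS2, another helicase subunit, rose by 0.54. With a library left out 16 to 20 members rose. Mitotic genes gave a different count, with 7 of 40 lower (17.5%, beside 9.78% of all genes), none higher and a median of -0.05. UBE2C, the ubiquitin conjugase of the anaphase-promoting complex, fell from 256, 255 and 279 CPM to 205, 212 and 207 CPM (-0.34, adjusted p = 2.07e-06). The mitotic count fell to 4 without shPDK1#1 replicate 1 or shPDK1#2 replicate 3 and to 2 without shPDK1#1 replicate 3.

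CDKN1A, the cyclin-dependent kinase inhibitor p21 (chromosome 6, 36676460 to 36687337), stood at 222, 227 and 215 CPM with shPDK1#1, against 132, 131 and 125 CPM with shPDK1#2, and at 274, 269.9 and 262 CPM in shCtrl. The 3 groups were apart and in the order of PDK1, and the hairpins differed by -0.77 (SE 0.045, adjusted p = 1.61e-12). CDKN2D, the inhibitor p19, fell by 0.61 (adjusted p = 0.00401). In all 8 of 24 cell cycle inhibitors and p53 targets fell (33.3%, beside 9.78% of all genes) and 2 rose (8.33%, beside 6.50%). There were 5 falls without shPDK1#1 replicate 3 or shPDK1#2 replicate 2, and without shPDK1#1 replicate 2 or shPDK1#2 replicate 1 or 3 there was 1 rise.

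Cytosolic ribosomal proteins rose in 75 of 78 tested members (96.2%, beside 6.50% of all genes), with none lower. Over all 78 members the differences ran from 0.08 to 0.32 with a median of 0.18, and the libraries of the hairpins did not overlap in any of the 78 genes. Of all genes, 30.7% did not overlap, 14.5% in that direction. RPL35A, a large subunit protein, stood at 440.3, 413 and 414 CPM with shPDK1#1, against 504, 492 and 512 CPM with shPDK1#2 (0.25, SE 0.038, adjusted p = 2.23e-05). RPS29 rose by 0.32, RPS28 by 0.28 and RPS2 by 0.26, of which RPS2 shares 87.1% of its sequence with other genes. This family has many pseudogene copies, so single members are uncertain where the counting could split reads. RPL10 (0.08), RPL22 (0.09) and RPS4X (0.09) were the 3 that did not pass. Under a test against a minimum log2 change of 0.25, no ribosomal protein gene passed.

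In library terms, ribosomal protein transcripts took 5.70% to 5.91% of counts in shCtrl, 6.2% to 6.31% with shPDK1#1 and 7.0% to 7.16% with shPDK1#2. Their transcripts are short, with a median of 827 bases beside 3216 over all genes tested. All genes were also split into 4 length bins of equal size. The shortest bin, of 173 to 1924 bases, had a median log2 fold change of 0.04 and the longest one of -0.03. The part of transcript length in the result was not tested. Ribosome biogenesis factors rose in 12 of 40 members and fell in none, with a median of 0.12. UTP20, which processes pre-ribosomal RNA, rose from 60.5, 62.3 and 64.0 CPM to 79.7, 76.3 and 75.3 CPM (0.31, adjusted p = 0.00132), and NAT10, an RNA acetyltransferase, rose by 0.27.

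**Figure D4:**
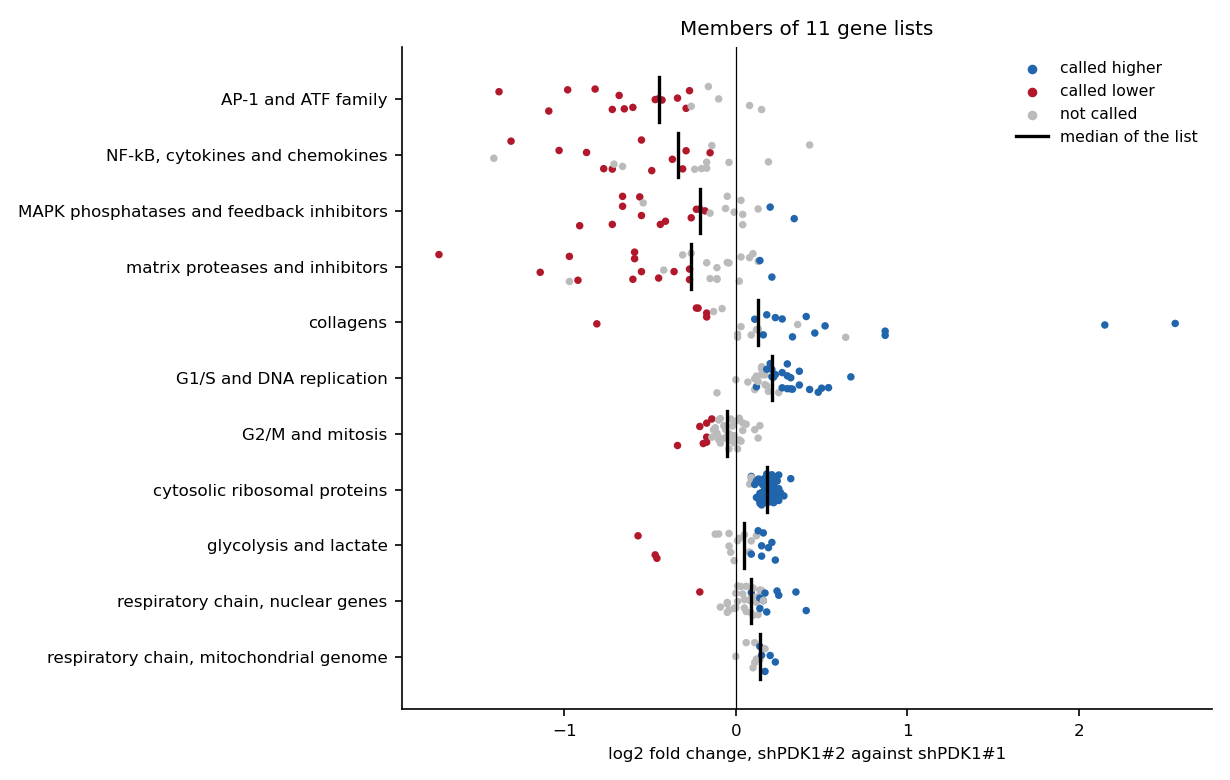
Log2 fold change of shPDK1#2 against shPDK1#1 OSCs (x axis) for each tested member (points, blue where called higher, red where called lower, grey where not called) of 11 gene lists (y axis), with the median of each list as a black bar. The 78 ribosomal proteins form a narrow band from 0.08 to 0.32, while AP-1 and ATF members spread below 0 down to -1.38 for ATF3.

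Glycolysis genes did not move together: 8 of 23 rose, 3 fell and the median was 0.05. Rises were 34.8% of the list, where 6.50% of all genes rose. Falls were 3 of 23, where 9.78% of all genes fell. The 3 falls were the largest changes. PFKFB3, which makes the allosteric activator of phosphofructokinase, stood at 367, 375 and 368 CPM against 247, 245 and 257 CPM (-0.57, SE 0.039, adjusted p = 6.08e-11). HK2, the inducible hexokinase, stood at 189, 184 and 194 CPM against 135, 138 and 139 CPM (-0.46, SE 0.045, adjusted p = 3.26e-08). For both, shPDK1#1 was above shCtrl, which held 316 to 334 CPM of PFKFB3 and 137 to 142 CPM of HK2. The glucose transporter SLC2A3 fell by 0.47, from 266, 252 and 257 CPM to 184, 178 and 198 CPM, but 36.3% of its sequence is shared with other genes. Its shCtrl libraries, at 177, 184 and 184 CPM, overlapped shPDK1#2 and lay below shPDK1#1.

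PGK1, which makes ATP in the payoff phase, rose by 0.16 (1166, 1151 and 1184 CPM against 1281, 1323 and 1311 CPM, adjusted p = 0.000517). The muscle-type phosphofructokinase PFKM rose by 0.21 (adjusted p = 0.0232), a call that was lost without shPDK1#1 replicate 1 (0.17, adjusted p = 0.113) or shPDK1#2 replicate 2 (0.15, adjusted p = 0.139). SLC2A1 (-0.10, adjusted p = 0.0826), HK1 (-0.03, 0.00 with upper quartile factors), PKM (0.01) and LDHA (-0.04) did not pass. The glycolysis rises numbered 5 without shPDK1#1 replicate 1.

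Hypoxia targets outside glycolysis were as divided, 5 of 22 higher and 4 lower, with a median of -0.09. Rises were 22.7% and falls 18.2%, beside 6.50% and 9.78% of all genes. CA12, a carbonic anhydrase, rose from 73.5, 79.4 and 74.9 CPM to 97.0, 97.0 and 95.1 CPM (0.34, adjusted p = 7.46e-05), and EGLN3, a HIF prolyl hydroxylase, from 57.8, 58.0 and 56.6 CPM to 73.1, 71.7 and 69.0 CPM (0.31, adjusted p = 0.00113). Both had their lowest values in shCtrl. PPFIA4 rose by 0.62. Without shPDK1#2 replicate 1 the falls numbered 2.

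Of 22 TCA cycle and glutamine genes 2 rose (9.09%, beside 6.50% of all genes) and 3 fell (13.6%, beside 9.78%). OGDH, the 2-oxoglutarate dehydrogenase, fell from 156, 148 and 144 CPM to 126, 128 and 111 CPM (-0.30, SE 0.054, adjusted p = 0.000250) in all 9 fits that left out a library. The rises numbered 1 without shPDK1#1 replicate 3 or shPDK1#2 replicate 2 or 3, and the falls 1 without shPDK1#1 replicate 1 or 3 or shPDK1#2 replicate 2. Nuclear genes of the respiratory chain rose in 10 of 40 members (25%, beside 6.50% of all genes). They fell in 1 of 40, where 9.78% of all genes fell, and their median was 0.09. NDUFS3, a complex I subunit, rose from 52.2, 56.9 and 55.0 CPM to 63.9, 66.4 and 65.6 CPM (0.25, adjusted p = 0.00727). SDHD of complex II rose by 0.41, with 36.1% of its sequence shared with other genes. There were 6 rises without shPDK1#1 replicate 1 or shPDK1#2 replicate 1, and no fall without shPDK1#1 replicate 1 or shPDK1#2 replicate 2.

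Of the 13 protein-coding genes of the mitochondrial genome 5 rose (38.5%, beside 6.50% of all genes) and none fell, with a median of 0.14. MT-CO1, a core subunit of cytochrome c oxidase, stood at 7705, 7004 and 8328 CPM with shPDK1#1, against 9264, 8908 and 8759 CPM with shPDK1#2. The shCtrl libraries, at 9275, 8934 and 9729 CPM, overlapped shPDK1#2 and lay above shPDK1#1, and the log2 fold change between the hairpins was 0.23 (SE 0.041, adjusted p = 0.000273). The count moved with single libraries, to 3 without shPDK1#1 replicate 2 or shPDK1#2 replicate 1 and to 8 without shPDK1#1 replicate 3. The median was 0.06 without shPDK1#1 replicate 2.

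Factors of stemness, the property that sphere culture enriches, gave 1 rise and 3 falls among 21 tested members, with a median of -0.08. Those were 4.76% and 14.3% of the list, beside 6.50% and 9.78% of all genes. SOX2, a factor of stem cell self-renewal, had a log2 fold change of 0.09 (40.8, 38.8 and 38.2 CPM against 44.6, 44.2 and 36.7 CPM, adjusted p = 0.489), with overlapping groups. KLF4 (-0.30, adjusted p = 0.0506), the sterol exporter ABCG1 (-0.41, adjusted p = 0.0531) and MYC (0.25, adjusted p = 0.278) did not pass. Of these, the KLF4 and ABCG1 libraries were apart, with shPDK1#2 lower. KLF4 passed in 1 and ABCG1 in 2 of the 9 fits that left out a library: both passed without shPDK1#2 replicate 2 (adjusted p = 0.0174 and 0.0468) and ABCG1 without shPDK1#1 replicate 3 (adjusted p = 0.0244). NT5E, the surface enzyme CD73, fell by 0.36 (adjusted p = 5.80e-06), and ALDH1B1, an aldehyde dehydrogenase, rose by 0.30 (adjusted p = 0.000992).

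Other genes that the study names gave larger differences. The study picked ATF3, CCN3, DUSP8, C11orf96, BEAN1 and NIM1K by RNA-seq as lower with both hairpins and higher in OSCs. Being below shCtrl and higher in OSCs was thus a condition of their choice. CCN3, a matricellular protein, stood at 37.4, 32.2 and 28.4 CPM against 15.7, 13.7 and 15.8 CPM (-1.10, SE 0.106, adjusted p = 2.36e-08), below 41.7, 45.9 and 44.7 CPM in shCtrl. BEAN1 stood at 3.98, 6.91 and 6.25 CPM against 2.24, 1.31 and 2.81 CPM (-1.44, SE 0.268, adjusted p = 0.000328). Both were apart between the hairpins. C11orf96 fell by 0.72, from 6.22, 7.85 and 8.13 CPM to 4.28, 4.45 and 4.90 CPM, a call lost without shPDK1#1 replicate 3 (-0.64, adjusted p = 0.0546). NIM1K, at less than 1 CPM with either hairpin, had a log2 fold change of 0.37 (SE 0.804, adjusted p = 0.814), which the depth could not resolve.

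Among ligands and receptors, the Notch list had 3 rises and 3 falls in 22 genes (13.6% each, beside 6.50% and 9.78% of all genes). JAG1, a Notch ligand, fell from 341, 348 and 325 CPM to 226, 221 and 216 CPM (-0.61, SE 0.040, adjusted p = 2.18e-11), as did DNER. The Notch target HEY2 rose from 3.23, 5.23 and 4.73 CPM to 9.96, 7.99 and 9.17 CPM (1.02, adjusted p = 0.000488), and NRARP, a target that restrains the pathway, by 0.79 (adjusted p = 0.00777). The Wnt list had 5 rises (14.7%) and 6 falls (17.6%) in 34 genes. WNT7B fell from 214, 229 and 210.1 CPM to 132, 142 and 134 CPM (-0.68, adjusted p = 2.75e-10), and DKK2, a Wnt antagonist, rose by 0.56.

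Growth factor receptors and ligands had 5 rises (13.2%, where 6.50% of all genes rose) and 8 falls (21.1%, where 9.78% fell) in 38 genes. IGFBP6, which binds insulin-like growth factor II, fell from 17.8, 19.5 and 17.0 CPM to 8.10, 11.3 and 9.58 CPM (-0.90, adjusted p = 1.03e-05), and the adaptor IRS1 fell by 0.55. FGFR2 rose by 0.68 (adjusted p = 0.00233). Without shPDK1#2 replicate 2 the rises numbered 3. Axon guidance genes had 9 rises (20.5%), or 5 without shPDK1#1 replicate 1, and 10 falls (22.7%) in 44 genes. SEMA7A, a membrane-anchored semaphorin, fell from 102, 107 and 104 CPM to 54.6, 52.9 and 53 CPM (-0.97, SE 0.056, adjusted p = 1.61e-12), SEMA5A fell by 0.97 too, and SEMA6B rose by 0.87.

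Interferon response genes fell in 4 of 30 members (13.3%, where 9.78% of all genes did) and rose in none, with a median of -0.12. OASL stood at 8.71, 6.60 and 8.31 CPM against 2.7, 2.53 and 2.08 CPM (-1.68, SE 0.221, adjusted p = 3.87e-06), and IFIT2 fell by 1.47 at low level. Of 17 genes of MHC class I presentation 3 fell (17.6%) and 1 rose (5.88%, where 6.50% of all genes did). HLA-B fell from 67.0, 69.0 and 69.2 CPM to 52.0, 52.7 and 58.5 CPM (-0.33, adjusted p = 0.00106).

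The comparisons of each hairpin with shCtrl share the shCtrl libraries with each other and the hairpin libraries with the values above, so they are given side by side only. PDK1 was at -0.69 with shPDK1#1 and -1.19 with shPDK1#2 on the log2 scale against shCtrl. ATF3 was at -0.49 and -1.87, IL11 at -0.15 and -1.46, and INHBA at -0.11 and -1.58. COL3A1 was at 2.02 and 4.17, and MMP10 at 0.26 and -1.47.

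The separate table of OSCs and non-OSCs shares no library with the hairpins, so it gives a readout of the same genes in other libraries. There, 32.6% of the 14047 genes tested in both were higher in OSCs and 31.5% were lower. These shares were not matched for expression level, and genes called between the hairpins were better expressed than genes not called, as given below. Of the 1420 genes that fell with shPDK1#2 against shPDK1#1, 1065 (75%) were higher in OSCs than in non-OSCs and 160 (11.3%) were lower. Of the 930 that rose, 167 (18%) were higher in OSCs and 599 (64.4%) were lower. Among the 177 rises with a log2 fold change of at least 0.5 the lower share was 40.7% (72 genes), and 23.7% were higher. Taken from the other side, the 1065 genes were 23.3% of the 4580 higher in OSCs, and the 599 were 13.6% of the 4418 lower there. Across genes, which are not independent replicates, Pearson's r of the log2 fold changes was -0.35 and Spearman's rho -0.40.

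**Figure D5:**
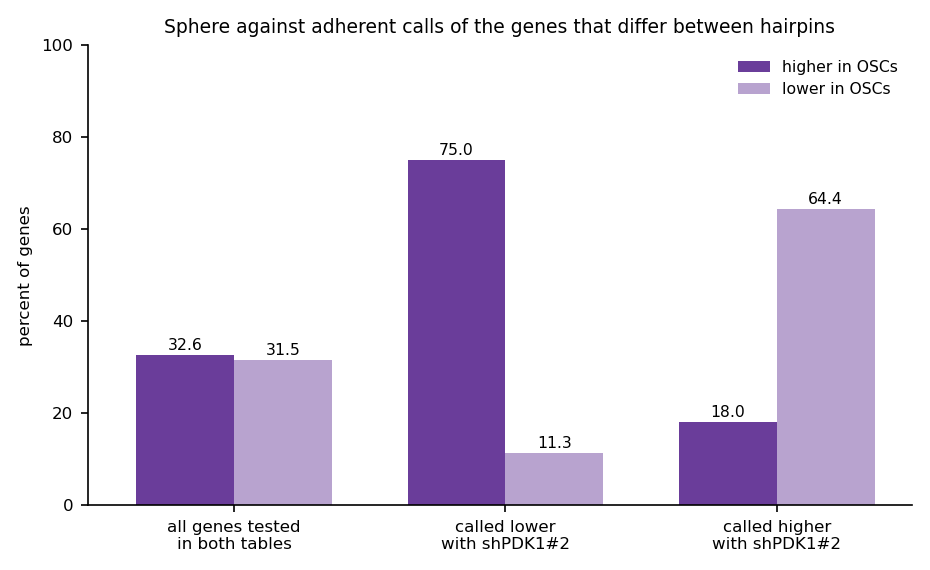
Percent of genes higher or lower in OSCs than in non-OSCs (y axis, adjusted p under 0.05) among genes called higher with shPDK1#2, genes called lower and all 14047 genes tested in both tables. Genes that fell were mostly higher in OSCs (75%, beside 32.6% of all genes), and 64.4% of genes that rose were lower there (beside 31.5%), a share of 40.7% among rises with a log2 fold change of at least 0.5.

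All 10 of the largest falls were higher in OSCs than in non-OSCs, from a log2 fold change of 1.06 for DNER to 8.44 for MMP10. ATF3 was higher by 4.37, PTGS2 by 4.16, BPGM by 3.10, IL11 by 2.41 and INHBA by 1.80. For ATF3, a higher level in OSCs was a condition of the study's choice. PDK1 was higher by 0.59. In the lists, 14 of 19 AP-1 and ATF members and 19 of 22 NF-kB genes were higher in OSCs, while 78 of 78 ribosomal protein genes and 38 of 38 G1/S genes were lower. Other lists did not run opposite to the hairpin difference: 22 of 28 collagens, 24 of 30 sterol and fatty acid synthesis genes and 18 of 19 ER chaperone genes, lists with more rises than falls, were higher in OSCs, and 24 of 40 mitotic genes, with falls and no rise, were lower. Of the 10 largest rises 6 were higher in OSCs, among them A2M (3.86) and UNC5C (2.48), and 3 were lower, TUBA1B-AS1 (-3.02), ID3 (-1.62) and SLC8A1 (-0.73). COL3A1 was not called there (-0.38, adjusted p = 0.177).

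Genes that fell had longer transcripts than genes that rose, with medians of 4227 and 3068 bases, beside 3128 in genes not called. In 4 bins of equal size by transcript length, from short to long, 5.18%, 8.05%, 10.5% and 15.4% of genes fell, and 7.48%, 6.24%, 5.63% and 6.67% rose. Median GC content was 48.9% in rises, 48.5% in falls and 48.7% in all genes. Called genes were also better expressed, at a median of 69.7 CPM for rises and 55.2 CPM for falls beside 20.6 CPM in genes not called, and higher counts carry a smaller error.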

How the data were processed

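Total RNA was prepared with a NEBNext Ultra RNA library kit and sequenced in pairs. The authors deposited RSEM expected counts per gene, not normalized, in one table of 9 shRNA OSC libraries and one of 3 OSC and 3 non-OSC libraries. The submitters' processing notes name Trimmomatic 0.39, FastQC 0.12.1, STAR 2.7.11a, RSEM 1.3.3 and the build GRCh38.p14, while the annotation and the strand setting are not given in the sources used here. RSEM splits reads that match several genes by estimate, and 6.92% of the deposited expected counts were not whole.

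Expected counts were rounded. In edgeR 4.0.16 (R 4.3.3, limma 3.58.1) genes were filtered with filterByExpr by group, scaled by TMM and fitted with a quasi-likelihood model over the 9 shRNA libraries, and shPDK1#2 was contrasted with shPDK1#1. The Benjamini-Hochberg adjustment ran over all 14574 genes, with a threshold of 0.05. Rises and falls are genes past that threshold. The OSC table was fitted alone in the same way. CPM are TMM-scaled, and the standard error is the log2 fold change divided by the root of F. The fit was tested on simulated data. A simulated log2 change of 1 was called in 97 of 100 genes and a change of 0.5 in 80 of 100. Among 14192 unchanged genes 12 were called, and changes under 0.5 were not simulated.

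The contrast and the 35 gene lists and 6 marker lists were chosen with earlier results of these data known. Genes were named by a rule: PDK1 to PDK4 and genes the study names, the 10 largest rises and 10 largest falls with a symbol, hairpin libraries that do not overlap and at least 10 CPM on average, and for each list the 4 called members with the largest changes plus the largest in the other direction. Other genes given with values (JUN, ETV4, MMP1, SERPINE2, ID1, ID2, ID4, SMAD6, SMAD7, COL1A1, LUM, PDGFRA, PDPN, KRT18, ITGBL1 and uncalled list members) were picked once their values had been seen. Gene positions, lengths, overlaps and sequence shared between genes came from GENCODE 44 (GRCh38), which held all 62700 gene identifiers. Promoters came from RefSeq. Alternatives were DESeq2 1.42.0, library size alone, upper quartile factors, no filter, at least 10 counts in every library, the 6 hairpin libraries alone, a replicate block, a minimum log2 change of 0.25 with glmTreat, and leaving out each library. No column of per-sample values was left unmapped (0).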

Additional observations from a re-analysis of the deposited data

Results flagged for a closer look

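For 10 of the named genes the 2 hairpins lay on opposite sides of the control: all libraries of one hairpin were above all 3 shCtrl libraries and all of the other below them, and the difference between the hairpins passed edgeR's quasi-likelihood test over all genes. In 9 of them shPDK1#2 was the lower. On the log2 scale the difference of shPDK1#2 from shPDK1#1 was -1.73 for MMP10, -1.27 for CXCR4, -1.25 for PTGS2, -0.97 for PLAU, -0.90 for PMEPA1, -0.77 for TNFAIP3, -0.72 for LIF, -0.57 for PFKFB3 and -0.48 for INSIG1. PPFIA4 was the exception, at 0.62, with shPDK1#1 at 11.7, 12.4 and 12.2 CPM, shCtrl at 13.5, 12.5 and 13.9 CPM and shPDK1#2 at 15.9, 19.9 and 20.1 CPM. LIF stood at 28.5, 30.4 and 33.0 CPM with shPDK1#1, 28.3, 26.1 and 25.7 CPM in shCtrl and 17.4, 18.3 and 20.4 CPM with shPDK1#2, so its highest control library lay just under the lowest shPDK1#1 library. INSIG1, the sterol-sensing anchor of SREBP cleavage, stood at 124, 124 and 134 CPM, 108, 108 and 105 CPM and 97.7, 85.3 and 89.5 CPM in the same order. The difference of shPDK1#1 alone from shCtrl passed the same test for MMP10, CXCR4, PTGS2, TNFAIP3, PFKFB3 and INSIG1, and did not for PLAU (adjusted p = 0.411), PMEPA1 (adjusted p = 0.179), LIF (adjusted p = 0.307) and PPFIA4 (adjusted p = 0.706). Of all 14574 genes tested 104 (0.714%) were called between the hairpins with their libraries on opposite sides of the control in this way, 68 of them lower with shPDK1#2. Groups of 3 libraries were not tested for outlying samples.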

How the results depend on the processing

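The count of genes called, 2374, was 1946 with DESeq2, 2372 with library size alone, 2470 with upper quartile factors, 2360 without a filter, 2485 with at least 10 counts in every library, 2128 with the 6 hairpin libraries alone and 462 (114 higher, 348 lower) against a minimum log2 change of 0.25. With one library left out it was 1721 to 2324, with 691 to 920 higher and 1030 to 1404 lower, fewest without shPDK1#1 replicate 3. PDK1 stayed between -0.56 and -0.44 in those fits. Upper quartile factors made 54.7% of calls higher against 39.9% with TMM and moved the median of all genes from 0.005 to 0.039.

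The shares by sphere readout ranged, with one OSC or non-OSC library left out, from 72.8% to 74.4% for falls higher in OSCs, 9.77% to 11.1% for falls lower there, 17.3% to 18.1% for rises higher and 62.8% to 64.3% for rises lower. Among called genes with an absolute log2 fold change of at least 0.5 these shares were 78.6%, 11%, 23.7% and 40.7%.

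Signs changed only in genes that were not called: PDK2 (-0.06 without shPDK1#1 replicate 1, -0.01 without shPDK1#2 replicate 3), PDK3 (0.01 without shPDK1#1 replicate 1), HK1 (0.00 with upper quartile factors or without shPDK1#1 replicate 2), PKM (-0.01 without shPDK1#2 replicate 2) and NIM1K (-0.30 without shPDK1#1 replicate 3, -0.08 without shPDK1#2 replicate 3). KLF4 and ABCG1 were called with at least 10 counts in every library (adjusted p = 0.0471 and 0.0472) and with the replicate block (0.0301 and 0.0464). Over the fits that left out a library PDK2 reached 0.13 at most, PDK3 -0.11 at least, PKM 0.04 at most and NIM1K 1.58 at most. Of the 159 named genes called, 119 were called in all 9 fits that left out a library and 40 were lost in at least 1. The cause was not tested.

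Replicate numbers were shared between groups. Same-numbered hairpin libraries correlated at 0.0413 to 0.301 in their deviations from the group means, and those with different numbers at -0.193 to 0.126. The labels do not say whether a number marks a pair, and the libraries were not taken as pairs. A replicate block gave 2522 calls (1027 higher, 1495 lower), a PDK1 log2 fold change of -0.50 (adjusted p = 0.000350) and 9 mitochondrial rises in place of 5. Depth limits genes under about 1 CPM, and 3 libraries a group limit the permutation test of a single gene to a p of 0.1 or more.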

Other observations

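Sterol and fatty acid synthesis genes gave 9 rises and 2 falls among 30 tested members, with a median log2 fold change of 0.07 between the hairpins. DHCR7, the last enzyme of cholesterol synthesis, rose from 175, 193 and 182 CPM to 214, 229 and 228 CPM (0.29, SE 0.048, adjusted p = 9.98e-05), and MVK, mevalonate kinase, rose by 0.28. INSIG1 fell by 0.48. The rises numbered 5 without shPDK1#1 replicate 3.

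ATF4 targets and amino acid supply genes gave 4 rises and 4 falls in 31 members (12.9% each, beside 6.50% and 9.78% of all genes). PHGDH, the first enzyme of serine synthesis, rose from 162, 165 and 171 CPM to 194, 202 and 206 CPM (0.27, adjusted p = 0.000209), and SHMT2, which makes glycine in mitochondria, also rose by 0.27. GDF15, a stress cytokine, fell from 8.33, 7.22 and 8.13 CPM to 2.14, 4.55 and 4.27 CPM (-1.12, adjusted p = 0.000486). The falls numbered 2 without shPDK1#1 replicate 3. Of 19 genes of ER chaperones and the unfolded protein response 5 rose (26.3%), among them CALR (0.25). The 2 falls (10.5%) were the sensor ERN1 (-0.53) and EDEM1 (-0.29). There were 3 rises without shPDK1#1 replicate 3 or shPDK1#2 replicate 2.

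Lysosome and autophagy genes gave 9 falls and 3 rises in 32 members, with a median of -0.11. Falls were 28.1% and rises 9.38% of the list, beside 9.78% and 6.50% of all genes. CTSB, a lysosomal cysteine protease, fell from 664, 688 and 681 CPM to 477, 496 and 497 CPM (-0.47, SE 0.036, adjusted p = 5.44e-10), and the cholesterol transporter NPC1 fell by 0.45. The rises numbered 0 without shPDK1#1 replicate 1 or shPDK1#2 replicate 2 and 1 without shPDK1#2 replicate 1. NRF2, antioxidant and iron genes gave 6 falls and 2 rises in 30 members. HMOX1, heme oxygenase 1, fell by 0.38 and CAT, catalase, rose by 0.30. The falls numbered 3 without shPDK1#1 replicate 3 or shPDK1#2 replicate 1 and 2 without shPDK1#2 replicate 2, and the rises 1 without shPDK1#1 replicate 3.

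Actomyosin genes and targets of YAP and SRF gave 4 rises (11.8%) and 6 falls (17.6%) in 34 members. Over all genes 6.50% rose and 9.78% fell. MRTFA, an SRF coactivator, fell from 54.6, 62.8 and 58.5 CPM to 36.5, 42.8 and 40.7 CPM (-0.56, adjusted p = 6.18e-06), while CNN2, a calponin, rose by 0.33. There were 7 rises without shPDK1#1 replicate 2, and without shPDK1#2 replicate 3 there were 3 falls. Factors of the epithelial-mesenchymal transition gave 3 falls (21.4%) and 1 rise (7.14%) in 14 members. ZEB1 was lower by 0.36 on the log2 scale (adjusted p = 0.000196). Without shPDK1#2 replicate 1 there was 1 fall, and the rises numbered 2 without shCtrl replicate 1 and 0 without shPDK1#1 replicate 3 or shPDK1#2 replicate 2.

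Fitted log2 fold changes of at least 2 in size came from 16 called genes, 10 higher and 6 lower, nearly all with 1 hairpin at or near 0 counts, where the fitted value depends on the prior count. ITGBL1, an integrin-like secreted protein chosen after its values were seen, was measured in all libraries, at 1.49, 1.36 and 2.5 CPM with shPDK1#1, against 7.26, 8.49 and 6.46 CPM with shPDK1#2 (2.02).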
